A study of Marmota monax with 20 samples.

Results

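The thymus was represented by 1 of the 20 RNA-seq libraries, chosen by its tissue label, and it came from the female woodchuck F9150. The eastern woodchuck (Marmota monax) is a North American rodent used as an animal model of hepatitis B. All 6 animals were adults negative for woodchuck hepatitis virus, and poly(A) RNA was sequenced from 7 tissues. Spleen had 5 libraries, from the females F6849 and F9150 and the males M4046, M4075 and M4091, and kidney had 5 from those same animals. Liver had 6, the additional animal being the female F6852. Heart and lung were taken once each from F6849, and pancreas once from F9150. The thymus has no replicate, so its values describe a single library of a single animal. It was sequenced on a lane that it shared with the lung library and with no other, so that lane and tissue cannot be told apart for these 2 libraries.

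The thymus is the organ in which precursors from the bone marrow mature into T cells within a framework of epithelial cells. It is most active in young animals and shrinks during adult life, when fat takes over much of its space. The spleen is the other lymphoid organ sampled here, where blood is filtered and mature B and T cells meet antigen. The lung contains, besides its airways and vessels, many resident immune cells.

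The count table lists genes by identifiers of the Monax4B annotation, without names, and no reference used here pairs them with names. Genes are therefore given by identifier, their functions are not stated, and the labelled tissue could not be checked against markers of T cells, thymic epithelium, fat or any other cell type. Fewer cells of a type and less RNA per cell cannot be told apart in these data. Levels were compared between tissues for a gene, and between genes only to find those with the most counts. The thymus library held 67284576 counts over the 30973 genes, within the range of the other 19 libraries (59487004 to 140252555). Levels below are CPM, the counts of a gene relative to the scaled size of its library, with TMM factors as the scale, which correct for differences in RNA composition. The factor of thymus was 1.145, and those of the others were 0.464 to 1.55.

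A small share of the mapped reads of thymus was counted in genes. The counts made up 38.1% of the mapped reads of this library, against 52.7% to 70.1% in the other 19, whose median was 57.4%. The spleens were at 58.0% (F6849), 52.7% (F9150), 58.4% (M4046), 56.6% (M4075) and 53.2% (M4091), a mean of 55.8% ± 2.70 (SD, n = 5). Thymus was below every one of them and below kidney (56.2% ± 1.40, n = 5), liver (68.1% ± 1.49, n = 6), heart (54.7%), lung (55.0%) and pancreas (68.7%). With 1 library against 5 the smallest one-sided p of an exact permutation test is 0.167. That test could not pass 0.05, and no test of the share was made. The 95% Wilson interval of the thymus share was within 0.00716 percentage points of its value. It covers no more than counting error, and copies made by PCR are not separate molecules. It also took every count as independent, although each read of a pair seems to be counted, so it is likely too narrow even for that error. The lung library, on the same lane, did not share the low value. The other libraries of F9150 did not either, with 66.5% in liver and 55.0% in kidney beside the 52.7% in spleen. What the uncounted reads of thymus contained was not tested here.

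**Figure D1:**
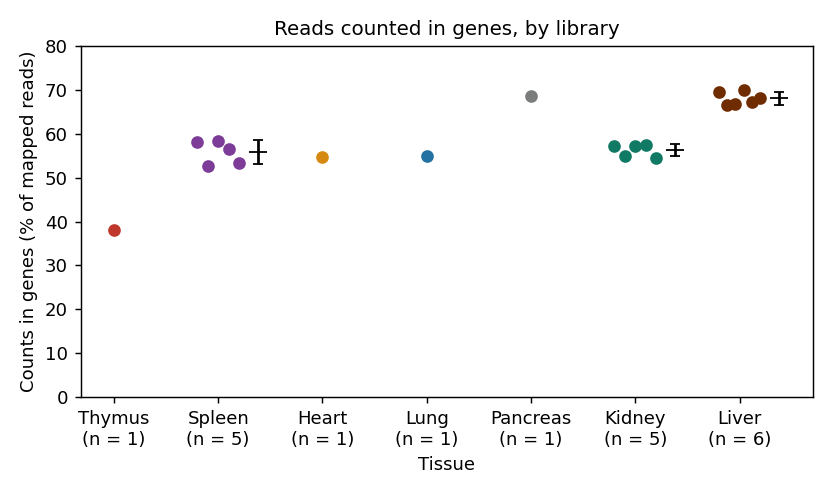
Share of mapped reads counted in genes, in percent, for each of the 20 libraries by tissue, with a bar at the mean and its SD for the tissues with replicates. The thymus library, at 38.1%, sits apart from the other 19, which start at 52.7%.

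The number of detected genes was within the range of the other tissues. At least 10 counts were found for 18627 genes in thymus, fewer than in any spleen (19160 to 19954), any kidney (19279 to 20323), heart (18762) or lung (20820), and more than in pancreas (17581) or any liver (17229 to 18138). When every library was thinned to 59487004 counts, thymus had 18379 such genes, fewer than each spleen (18754 to 19160) and each kidney (19055 to 19656) and more than each liver (16396 to 16883). Heart then had 18430, lung 19938 and pancreas 16875. Weakly covered genes were not more frequent, with 2745 genes at 1 to 9 counts in thymus and 2648 to 3432 elsewhere. The 10 most abundant genes took 9.37% of the thymus counts, inside the range of 4.39% to 50.2% of the others. Of 4437 genes without a single count in liver, kidney and spleen, 116 had a count in thymus, 122 in pancreas, 153 in heart and 300 in lung.

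Across all genes the thymus profile was closer to lung and heart than to spleen. Similarity was measured as Pearson's r of log2 CPM over the 23602 genes left after weakly counted ones were filtered out, and it is given as a description, since genes are not independent replicates and every value shares the thymus library. It was 0.885 with lung and 0.879 with heart. Kidney followed with 0.854 ± 0.00512 (SD, n = 5), then pancreas with 0.841, spleen with 0.838 ± 0.00925 (n = 5) and liver with 0.803 ± 0.00494 (n = 6). The highest spleen was that of F9150, the animal the thymus came from, at 0.854, and the other spleens lay between 0.831 and 0.835. Lung and heart were thus above every spleen and every kidney (0.848 to 0.862), while pancreas lay within the range of the spleens. Spearman's rho put lung (0.898) and heart (0.889) first as well. In liver too the library of F9150 was the closest to thymus, at 0.811, but in kidney it was that of M4046, with F9150 at 0.853.

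**Figure D2:**
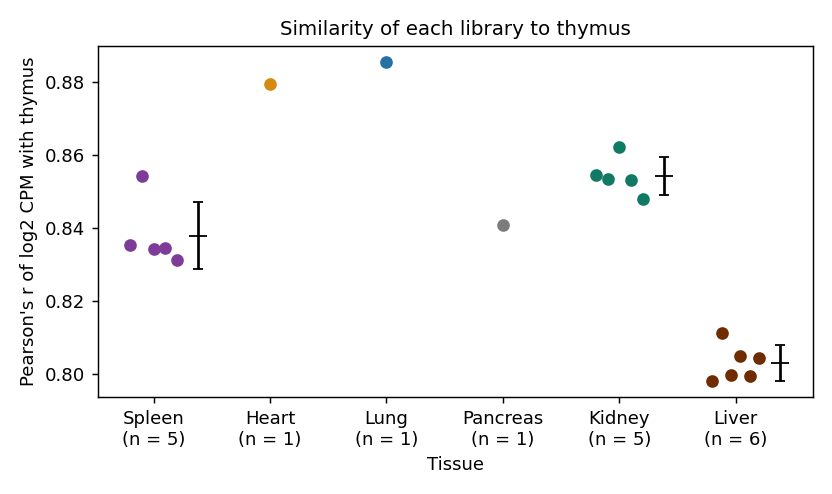
Pearson's r of log2 CPM between the thymus library and each of the other 19 libraries by tissue, with the mean and SD for tissues with replicates. Lung (0.885) and heart (0.879) lie above every spleen, and the highest spleen is that of F9150 (0.854).

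The same order of lung and heart over spleen was seen gene by gene. Among 8053 genes that reached 10 CPM and differed at least 4-fold between tissue means, the tissue nearest to thymus in level was heart for 24.4%, lung for 21.7%, kidney for 15.7%, spleen for 13.7%, pancreas for 12.8% and liver for 11.7%. Thymus itself took an extreme position less often than spleen, liver, heart or pancreas and more often than lung or kidney. It was the highest of the 7 tissue means for 12.9% of 13755 genes and the lowest for 13.5%, where spleen was highest for 19.6% and lowest for 18.5% and liver for 20.8% and 20.0%. Heart was highest for 16.5% and lowest for 15.9%, and pancreas for 14.9% and 16.3%. Lung was highest for 7.02% and lowest for 7.47%, and kidney for 8.3% and 5.33%.

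Thymus differed from spleen in a large part of the transcriptome, in both directions. The test was edgeR's quasi-likelihood fit over all 20 libraries, in which the lone thymus library is assumed to vary as much as the libraries of liver, kidney and spleen do, with the Benjamini-Hochberg adjustment at 0.05. Of 23602 genes, 4661 (19.7%) were higher and 4247 (18%) were lower in thymus than in spleen. Against kidney 2957 (12.5%) were higher and 2924 (12.4%) lower, and against liver 5072 (21.5%) were higher and 4110 (17.4%) lower. The higher genes were thus 52.3%, 50.3% and 55.2% of those called against spleen, kidney and liver. With library sizes alone in place of TMM factors these percentages were 36.6%, 30.0% and 85.7%, so which direction prevails depends on the scaling. Without factors the median of all genes shifted by -0.19 (log2, thymus minus tissue) against spleen, -0.26 against lung, -0.22 against kidney, 0.57 against liver and 0.70 against pancreas. With TMM it stayed within 0.03 of 0. The directions given for single genes below are relative to the TMM scale.

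A count of larger differences asked that thymus lie at least 4 times beyond the nearest library of the other tissue, with at least 10 CPM on the higher side and counts under 3 raised to 3 on the lower side. Against spleen 1046 genes (4.43%) were past this limit as higher and 668 (2.83%) as lower in thymus. Of these, 99.5% and 97.8% were also called by edgeR. With library sizes alone the balance turned, with 858 higher and 946 lower. The spleens themselves spread by a median factor of 1.51 from their lowest to their highest library over 9490 genes, and 7.08% of these genes spread 4-fold or more. The limit was passed by 625 genes (2.65%) higher and 925 (3.92%) lower against heart, and by 469 (1.99%) higher and 971 (4.11%) lower against lung. Pancreas gave 1387 (5.88%) higher and 1203 (5.1%) lower. Liver gave 975 (4.13%) and 1008 (4.27%), which turned to 1931 and 663 with library sizes alone, and kidney gave 568 (2.41%) and 696 (2.95%). Lung had the fewest genes that were higher in thymus, although the limit was easier to pass against a single library than against 5 or 6.

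**Figure D3:**
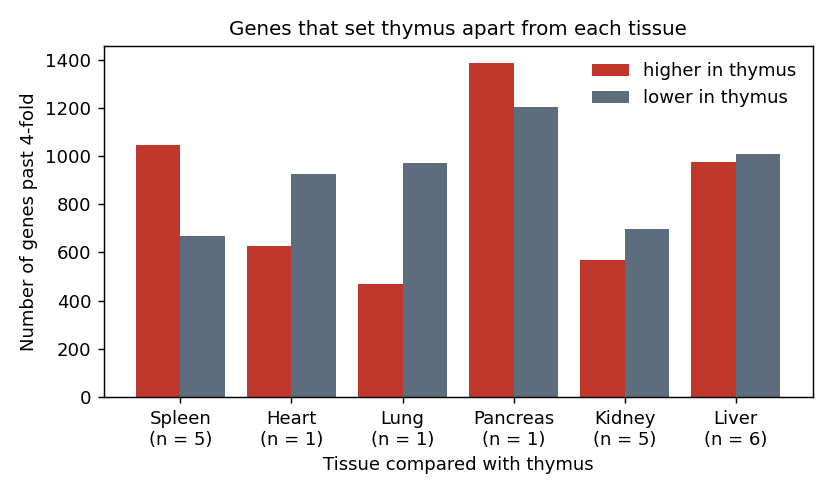
Number of genes at least 4 times higher (red) or lower (grey) in thymus than in every library of each other tissue, with the number of libraries of that tissue under its name. Against spleen 1046 genes were higher and 668 lower, while against lung 469 were higher and 971 lower.

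Genes far higher in thymus than in spleen included the most abundant of this library. Monax4B045448 had 1133754 counts in thymus (14721 CPM), 1.69% of the library and more than any other gene. In spleen it had 2.76 CPM (F6849), 75.2 (F9150), 1.35 (M4046), 2.48 (M4075) and 7.204 (M4091). The spleen of F9150 thus stood above the other spleens and far below thymus. Lung had 2811 CPM, heart 184 and pancreas 119, kidney 0.176 to 126 with the highest value in M4046, and liver 0.282 to 2.97. The fitted difference from spleen was 9.69 on the log2 scale (SE 1.96, edgeR adjusted p = 0.00115).

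Monax4B011824 was the gene with the largest ratio of thymus over spleen, and it held that place against heart, pancreas, liver and kidney as well. It had 590536 counts in thymus (7668 CPM) and 158040 in lung (1006 CPM). The 5 spleens had 0, 0, 2, 12 and 2 counts, the kidneys 0 to 8, the livers 0 to 2, heart 24 and pancreas 0. The gene was thus abundant in the 2 libraries of that lane and close to absent in the other 18. It was higher in thymus by 17.92 on the log2 scale against spleen (SE 1.06, edgeR adjusted p = 2.69e-09), and also against liver (edgeR adjusted p = 2.38e-09) and kidney (1.1e-08). Against pancreas, at 0 counts, thymus was at least 99522-fold higher.

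Monax4B004177, the next by its ratio over spleen, was shared with liver rather than limited to thymus. It had 2025 CPM in thymus and 6 to 18 counts in each spleen (log2 difference 14.01, SE 1.703, edgeR adjusted p = 1.03e-05). Liver ranged from 341 to 3549 CPM with a median of 1782, and the difference from liver did not pass the test (0.20, SE 1.59, edgeR adjusted p = 0.966). Lung had 447 CPM, pancreas 12.4 and heart 1.27.

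In the other direction, 2 genes abundant in every spleen were close to absent from thymus. Monax4B007129 had 457, 213, 218, 456 and 144 CPM in the spleens of F6849, F9150, M4046, M4075 and M4091 and 2 counts in thymus. It was lower in thymus (edgeR adjusted p = 0.000712), and its other levels were 33.6 CPM in lung, 9.60 in heart and at most 39.5 in kidney. Monax4B022855 had 102, 228, 793, 709 and 973 CPM in the spleens, in the same order, and 6 counts in thymus (log2 difference -12.79, SE 3.22, edgeR adjusted p = 0.00542). It reached no more than 2.38 CPM in any library outside the spleen.

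Genes of spleen chosen without regard to thymus were mostly low in it. There were 333 genes with at least 10 CPM in each spleen and at least 4 times the level of every liver and kidney library. Thymus came within 4-fold of the lowest spleen for 30 of them (9.01%), close to heart (28, 8.41%) and above pancreas (13, 3.9%), while lung did so for 93 (27.9%). The median level was 2.67% of the spleen mean in thymus, 11.1% in lung, 2.98% in heart and 1.08% in pancreas. At least 10 CPM was reached by 64 of the 333 genes in thymus (19.2%) and by 148 in lung (44.4%). Their summed level was 2771 CPM in thymus, 8885 in lung, 3726 in heart and 3648 in pancreas, against a mean of 67137 in spleen. Chosen in the same way, 69 of 527 liver genes (13.1%) and 59 of 267 kidney genes (22.1%) were within 4-fold in thymus, where lung had 10.6% and 37.8%. No test was made between these single libraries.

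A single gene was shared by thymus and spleen alone, in the sense that it was at least 4 times higher in these libraries than in every remaining one. Monax4B009038 had 119 CPM in thymus and 115, 98.6, 139, 144 and 137 CPM in the spleens of F6849, F9150, M4046, M4075 and M4091. The thymus lay within the range of the spleens, and the difference did not pass the test (log2 -0.09, SE 0.83, edgeR adjusted p = 0.96). The next highest library was lung, with 11.7 CPM. By the same rule thymus shared 19 genes with lung, 12 with heart, 9 with liver, and none with pancreas or kidney. The sharing tissues differ in their number of libraries, and the rule is stricter where there are more.

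The genes shared with lung were all higher in thymus, those shared with heart or liver mostly lower. For the 19 lung genes the median ratio of lung to thymus was 0.250, and together they held 4.16% of the thymus counts. Of the 12 heart genes 9 were higher in heart, with a median ratio of 1.33 and 0.263% of the thymus counts. Of the 9 liver genes 8 were higher in liver, with a median ratio of 2.71 and 1.30% of the counts. The rule for naming picked 2 genes for each tissue. With lung these were Monax4B011824, described above, and Monax4B025983, which had 860 CPM in thymus, 153 in lung, 4.06 in pancreas and at most 0.400 in every other library. It was higher in thymus than in liver (edgeR adjusted p = 1.16e-06) and kidney (8.82e-06).

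For heart the named genes were Monax4B022783, with 97.1 CPM in thymus, 340 in heart and 8.23 in lung, and Monax4B005490, with 49.1 in thymus, 31.4 in heart and 3.69 in lung. All remaining libraries were at or below 0.546 CPM for the first and 1.57 for the second. For liver, Monax4B026323 had 15.1 CPM in thymus and 1069 to 2358 in liver, and Monax4B019265 had 18.6 in thymus and 1516 to 29844 in liver. In both the thymus held a small fraction of the liver level, while no library of the remaining 5 tissues exceeded 2.38 CPM.

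Over all tissues, 104 genes (0.441% of those tested) were at least 4 times higher in thymus than in any other library, against 370 for heart, 199 for lung and 193 for pancreas. They held 10.4% of the thymus counts. The next highest library was lung for 61 of them, heart for 16, a liver for 12, a kidney for 7, pancreas for 6 and a spleen for 2. Only 13 of the 104 were 8 times higher. By ratio, among genes of at least 100 CPM, Monax4B001096 stood first, with 224 CPM in thymus and 2.05 in lung, the next library (109-fold). Its counts were 96, 46, 26, 20 and 10 in the spleens, 0 in heart and 4 in pancreas, against 17218 in thymus. Monax4B005159 followed with 1604 CPM in thymus, 175 in lung (9.17-fold) and at most 16.6 in the remaining libraries.

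The level in lung of the genes that stood out in thymus fell within a narrow band of fractions of the thymus level. With lung left free, 155 genes were at least 4 times higher in thymus than in each of the other 18 libraries. Their ratio of lung to thymus had a median of 0.188, with quartiles of 0.145 and 0.286, and 77.4% of the genes lay between 0.125 and 0.5. The 78 genes of at least 100 CPM had a median of 0.188 and quartiles of 0.162 and 0.237, and 87.2% of them lay in that interval. With other tissues left free in the same way, the medians were lower and the quartiles lay further apart as a fold. A ratio of 1 or more was reached by 9 genes for heart, 11 for liver, 2 for kidney, 1 for spleen and 0 for lung and pancreas. Heart had a median of 0.163 with quartiles of 0.0402 and 0.372 (166 genes), liver 0.0527 (149 genes), kidney 0.0424 (115 genes), pancreas 0.0344 (113 genes) and spleen 0.0233 (111 genes). The part of genes between 0.125 and 0.5 was 35.5% for heart, 28.2% for liver, 17.7% for pancreas, 13.0% for kidney and 8.11% for spleen. These gene sets overlap and are chosen on the thymus level, so these values are a description.

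**Figure D4:**
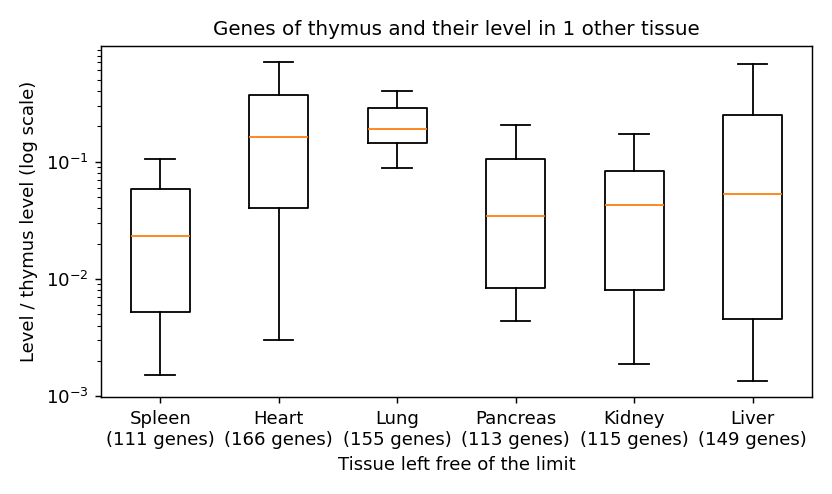
Ratio of the level in another tissue to that in thymus (log axis), for genes at least 4 times higher in thymus than in every library outside that tissue. Boxes give the quartiles and median, and whiskers the 10th and 90th percentiles. The 155 genes with lung left free have the narrowest box, from 0.145 to 0.286.

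The 155 genes took 11.2% of the thymus counts and 2.61% of the lung counts. Their summed level was 98013 CPM in thymus, 17375 in lung, 6967 in heart, 4512 in pancreas, 4115 to 4717 in liver, 3495 to 3887 in kidney and 2203 to 2916 in spleen. Every one of them had counts in lung, whereas up to 27 were at 0 in the other libraries. Lung was free of the 4-fold limit that the other libraries had to meet, so its values here are not on equal terms with theirs. Among kidneys the library of M4046 had the highest level for 38.3% of the genes that could be ranked, against 16.6% over all genes tested. Among spleens it was that of F9150 for 29.6%, against 15.0%, and that of F6849 for 28.9%, against 26.9%. The other organs of F9150 did not lead in this way, with 13.0% against 23.1% in kidney and 20.9% against 19.6% in liver.

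Lung genes showed no such band in thymus. With thymus left free, 224 genes were at least 4 times higher in lung than in each of the other 18 libraries. Their ratio of thymus to lung had a median of 0.0109, with quartiles of 0.00265 and 0.0668. For 19 of them, the genes shared with lung above, the ratio was 1 or more. The summed level of all 224 was 37189 CPM in thymus and 41394.5 in lung. Most of the thymus sum came from those 19 genes, with 14721 CPM for Monax4B045448 and 7668 for Monax4B011824. The similar sums therefore do not describe the other lung genes. Monax4B022615, the gene with the largest ratio of lung over thymus, had 457794 counts in lung and 8 in thymus. The part of the shared lane in these values was not tested.

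Genes lower in thymus were named only if they had at least 100 CPM in every library of the other organ. Their abundance there is thus set by the rule. Heart had 2535795 counts of Monax4B014099 and 1412668 of Monax4B043103, and thymus had 0 of both, which puts heart at least 900874-fold and 501869-fold higher. Pancreas had 5255230 counts of Monax4B009150 and 1656712 of Monax4B038665, and thymus had 12 and 4. Monax4B001250, the second lung gene by ratio, had 107180 counts in lung and 2 in thymus. Liver had 1139 to 2885 CPM of Monax4B005136 and 1091 to 2070 of Monax4B040269, with 4 counts of each in thymus, and both were lower in thymus (edgeR adjusted p = 2.98e-05 and 2.21e-06). Kidney had 655 to 1258 CPM of Monax4B020296, with 2 counts in thymus (edgeR adjusted p = 3.11e-06). It had 497 to 605 CPM of Monax4B004469, with 0 counts in thymus, where kidney was at least 12751-fold higher (edgeR adjusted p = 1.07e-07).

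In the higher direction the genes that led against heart, lung and pancreas were partly shared with other organs. Monax4B021728 had 6106 CPM in thymus and 40 counts in heart, yet 1397 to 3072 CPM in kidney and 994 to 6666 in liver, with 0.164 to 1.30 in spleen. Monax4B032674 had 310 CPM in thymus and 7.26 in lung, a 42.7-fold ratio, and 0 counts in pancreas, where thymus was at least 4026-fold higher. Its level in liver was 48.2 to 3678 CPM, so that the thymus lay within the range of the livers.

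Genes low in thymus alone were very few. Only 3 genes (0.0127%) were at least 4 times lower in thymus than in every other library, where heart had 4, pancreas 2 and lung 0. Monax4B008937 had 1.87 CPM in thymus (144 counts) and 12.9 to 328 in the other 19 libraries. Monax4B030300 had 2.49 CPM (192 counts) and 14.5 to 392 elsewhere. The remaining one, Monax4B039812, which was named after its values were seen, had 5.01 CPM (386 counts) and 27.8 to 310 elsewhere. All 3 were still counted in thymus, so they were reduced rather than absent, and with library sizes alone the lowest other level of Monax4B039812 was 2.60 times that of thymus.

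**Figure D5:**
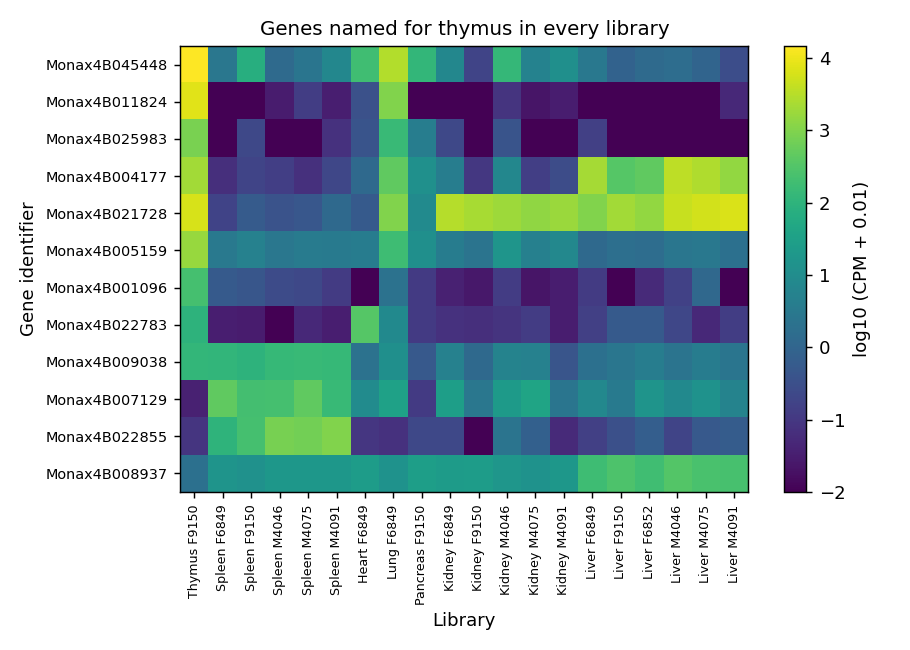
Level of 12 of the named genes in every library, as log10 of CPM plus 0.01, with thymus in the first column. Monax4B045448, Monax4B011824 and Monax4B025983 in the first rows are high in thymus and lung and low in most spleens. Monax4B004177 is high in liver too, Monax4B021728 in liver and kidney, and Monax4B001096 is low in lung. Monax4B009038 is high in thymus and in the 5 spleens, and Monax4B007129 and Monax4B022855 are high in the spleens and near 0 in thymus.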

How the data were processed

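The thymus and the tissues it is compared with were chosen, and all lists and rules set, with earlier results of these data known. Libraries were grouped by the tissue and animal in the labels, and lanes come from the column names of the count table. Per the labels, libraries were made with the TruSeq RNA v2 kit, which selects poly(A) RNA and does not mark strand, so overlapping genes on opposite strands cannot be told apart, and near-identical gene copies may share reads. Mapping by the authors used the gem-tools rna-mapper, and counting of Monax4B genes used gemtools. The deposited values are raw read counts per gene, without normalization, from 1 library per column. The submitters' processing notes also list CASAVA 1.8.4 and FastQC 0.11.5. Each read of a pair seems to add its own count, since 86.2% of the nonzero thymus counts are even. Total counts per library ran from 59487004 to 140252555.

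Differences were tested with edgeR 4.0.16 in R 4.3.3 (filterByExpr by tissue, TMM factors, robust quasi-likelihood fit of 7 tissue means, Benjamini-Hochberg adjustment at 0.05), and with Python 3.11.15. The spread in this fit comes from spleen, kidney and liver, and no test was made against heart, lung and pancreas. The floor of the fold rule was 3 counts per library. Log2 CPM for correlations used a prior count of 2. The share of reads in genes is the total count over the mapped reads, which were derived from the read numbers and mapping rates given in the study's description of its libraries. The edgeR fit of thymus against spleen was tried on simulated data, in which the thymus was given the spread of the fit. That trial did not cover the fold, sharing and ratio rules.

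At most 2 genes per direction and comparison are named: those with the largest ratio between the sides, at 100 CPM or more, and past the edgeR test in comparisons with spleen, kidney and liver. No minimum was set for genes shared by 2 tissues or below every library, and the gene with the most counts in thymus is named too. The alternatives were DESeq2 1.42.0, RLE factors, library sizes alone, no filter, the animal as a block, testing against a 2-fold change, robust observation weights, other minima, limits, floors and prior counts, the libraries of F9150 alone, and each library left out in turn. The shared genes with the F9150 libraries alone were added after seeing the data. Libraries that share an animal are paired by it, and their deviations from the tissue means correlated by 0.112 to 0.276 in 15 pairs. The main fit did not use this pairing. P-values rest on the spread between animals within spleen, kidney and liver, to which the thymus, from 1 animal, adds nothing.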

Additional observations from a re-analysis of the deposited data

Results flagged for a closer look

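A library stood apart from the others of its tissue, by Dixon's criterion for a highest or lowest value, in 8 of 30 sets examined. Chance gives about 1 in 20 for normally distributed values, which CPM of single genes need not be, so this rate is only a rough guide. It does not hold for the 4 sets of Monax4B011824 and Monax4B025983, whose other libraries were at or near 0 counts. The spleen of F9150, the animal of the thymus, had r = 0.854 with thymus, where the other spleens had 0.831 to 0.835. The same spleen had 75.2 CPM of Monax4B045448, where the others had 1.35 to 7.204. The kidney of M4046 had 126 CPM of this gene, against 0.176 to 12.1 in the other kidneys. Monax4B011824 stood apart in 3 tissues, each at a few counts: 0.124 CPM in the spleen of M4075 (others 0 to 0.0221), 0.0761 in the kidney of M4046 (others 0 to 0.0217) and 0.0403 in the liver of M4091 (others 0). Monax4B025983 had 0.136 CPM in the liver of F6849 and 0 in the other livers. Monax4B026323, shared by thymus and liver, had 1069 CPM in the liver of F6852 and 1961 to 2358 in the others. The causes were not tested.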

How the results depend on the processing

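Of the alternatives to the main values of each comparison, 301 values stayed within the spread or within 1.5 times the main count and 81 moved, and for single genes 208 stayed and 12 moved. The values that stayed include the gene counts with a floor of 6 counts, which could not change, since 10 CPM lies far above that floor. The thymus has 1 library and could not be left out. The 12 pairs of a gene and a tissue named for passing edgeR against spleen, kidney or liver, the only single-gene tests repeated, kept their direction and an adjusted p under 0.05 in all 12 or 13 alternatives each, the highest being 0.0267 (Monax4B025983, kidney). These pairs were chosen from the same data for the largest ratios, so their stability does not extend to the calls of other genes. The 12 moved ratios of single genes changed with the floor or the scaling. With the animal as a replicate block, 4201 and 3963 genes were higher and lower than in spleen, 2680 and 2827 than in kidney and 4392 and 3815 than in liver, which changed the call of none of these 12 pairs and none of these 6 counts by over 1.5 times. The spread of thymus between animals is unknown, and statements on genes at a few counts are limited by depth.

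Testing for a change of over 2-fold left 2538 genes higher and 1899 lower against spleen, 1231 and 1478 against kidney, and 3035 and 2210 against liver. With library sizes alone edgeR gave 1964 higher and 4574 lower against kidney, and 11562 and 1924 against liver. For spleen it gave 3541 and 6138. Leaving out 1 spleen, kidney or liver at a time gave 4397 to 4780 higher and 3972 to 4314 lower against spleen, 2712 to 2818 and 2664 to 2822 against kidney, and 4883 to 5101 and 3971 to 4166 against liver.

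Of the genes past 4-fold, a limit of 8 times kept 557 higher than in spleen, 286 than in heart, 66 than in lung, 693 than in pancreas, 560 than in liver and 266 than in kidney, and kept 625 lower than in lung and 740 than in pancreas. A minimum of 1 CPM gave 1133, 725, 2305 and 1708 higher than in heart, lung, pancreas and liver, and 1261, 1582, 2170, 2058 and 1283 lower than in spleen, heart, lung, pancreas and kidney. With library sizes alone 250 genes were higher than in lung, 3164 higher and 478 lower than in pancreas, and 1931 higher and 663 lower than in liver. Against only the library of F9150, 1061 genes were lower than in spleen, and 941 higher and 1061 lower than in kidney.

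Genes shared with heart, lung and liver numbered 5, 30 and 3 with library sizes alone, 20, 41 and 19 at 1 CPM, and 2, 10 and 1 at 8 times. Those shared with kidney numbered 1 with RLE factors, 2 with library sizes alone, 6 at 1 CPM and 0 to 2 with a library left out (2 without the liver of F9150). Pancreas had 1 at 1 CPM. With only the F9150 library spleen had 2, a choice made after seeing the data. Above every other library at 8 times were 13 genes. Below every other library were 13 at 1 CPM, 0 at 8 times, and 3 to 5 with a library left out (5 without the spleen of M4091).

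In the order spleen, heart, lung, pancreas, liver and kidney, r with thymus was 0.724, 0.844, 0.871, 0.766, 0.726 and 0.817 over genes with 10 counts in every library. It was 0.297, 0.450, 0.561, 0.269, 0.182 and 0.207 over the 1000 genes of largest variance, and 0.826, 0.867, 0.872, 0.828, 0.794 and 0.840 with a prior count of 0.5. Lung came first and heart second in each. Over all sequenced reads in place of mapped ones, the share in genes was 51.8%, 50.6%, 50.6%, 65.7%, 63.8% and 53.0% in that order, and 36.1% in thymus.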
